A study of Mus musculus with 20 samples.

Results

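The comparison described here sets ribosome-bound RNA against total RNA in mouse oocytes at metaphase I of the first meiotic division. Its members are the 7346 genes listed in both deposited tables, out of 8114 genes listed in either. Each gene has a log2 ratio at 8 h, the mean log2(value + 1) of the 2 ribosome-bound libraries minus that of the 2 total RNA libraries. Because the authors scaled the 2 tables separately, the ratio of the median gene was subtracted, and levels in the 2 kinds of RNA are comparable only on that footing; thus a positive ratio means over-represented on ribosomes relative to the median gene, and a negative one under-represented.

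The oocytes came from C57BL/6 females aged 3 weeks that carried RiboTag and Zp3-Cre, a transgene that drives recombination in growing oocytes. RiboTag puts an HA tag on the ribosomal protein RPL22 in cells with Cre, and an antibody to the tag then pulls down ribosomes with the RNA on them. All groups carried both alleles and came from mice given 5 IU of PMSG, a gonadotropin, 44 h before collection. Denuded oocytes were held in prophase I with 1 µM cilostamide, a phosphodiesterase inhibitor, and then released. The groups used here are ribosome-bound RNA at 8 h (metaphase I), total RNA at 8 h, and both kinds of RNA at 0 h (prophase I, still arrested). Each sample held 200 oocytes, and there were 2 samples a group. Libraries at 2, 4 and 6 h (prometaphase I) entered the estimate of the spread and the time courses. Nothing in the labels ties replicates to separate animals or cultures; p-values therefore cover the spread between these samples, which may be technical. A library without Cre or without antibody was not analysed here.

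Fully grown oocytes are nearly silent in transcription, so the proteins of the meiotic divisions are made from transcripts stored during growth. Many stored mRNAs carry short tails and wait off the ribosome until meiosis resumes. CPEB1 binds the cytoplasmic polyadenylation element, a U-rich motif near the 3′ end, and after its phosphorylation the tail lengthens and ribosomes load. Other mRNAs lose their tails and leave ribosomes over the same hours.

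The 4 libraries at 8 h held 33154384 to 42984406 reads in listed genes, inferred from the value of a single read, so that 325 to 427 reads lay behind a value of 10. Across genes, Pearson's r between replicates was 0.972 for ribosome-bound RNA and 0.958 for total RNA. By limma, fitted over all 20 libraries, 1718 of 7346 genes (23.4%) had an adjusted p under 0.05 for the ratio at 8 h. Of these, 1124 (15.3%) were higher on ribosomes and 594 (8.09%) were lower. Ratios ran from -4.87 to 3.08 on the log2 scale, with 5% of genes below -0.91 and 5% above 1.11. Among called genes, 444 were at least 2-fold higher and 194 at least 2-fold lower.

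The split between directions rests on the centring. Before it, the median gene stood at -0.22 (0.857-fold), and on those values 717 genes were higher and 1351 lower, so that 34.7% of calls were higher in place of 65.4%. Every ratio below is relative to the median gene. Counts also leaned on single libraries: without ribosome-bound replicate 2 the fit called 890 genes, and without total RNA replicate 1 it called 1067.

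**Figure D1:**
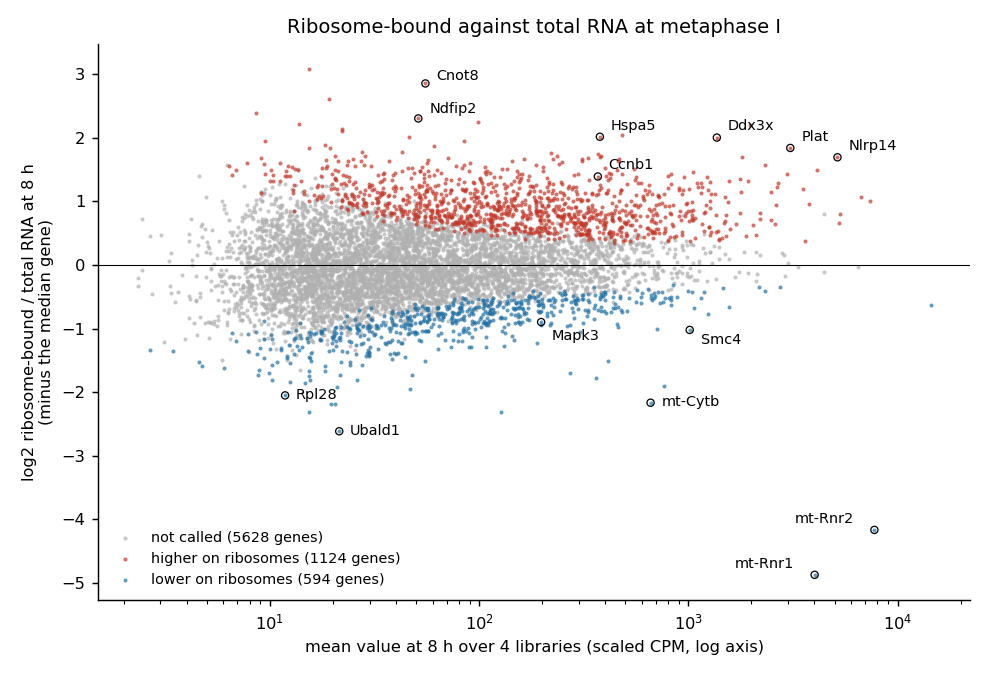
Log2 ratio of ribosome-bound to total RNA at 8 h, minus the median gene (y axis), against the mean value over the 4 libraries at 8 h in scaled CPM (x axis, log scale), 1 point a gene. The 1124 genes called higher are red and the 594 called lower blue; the mitochondrial rRNAs mt-Rnr1 and mt-Rnr2 lie lowest, at -4.87 and -4.17.

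Transcripts made inside mitochondria measure how much mitochondrial RNA the pulldown carried over, since mitochondria have ribosomes of their own without the tag. They do not measure cytosolic RNA that came down without a tagged ribosome. All 9 mitochondrially encoded genes in both tables were lower on ribosomes. The small mitochondrial rRNA mt-Rnr1 (ENSMUSG00000064337.1, chromosome M, 70 to 1024, mm10) had 339.9 and 146.4 scaled CPM on ribosomes, against 9134 and 6427 in total RNA, a log2 ratio of -4.87 ± 0.35 (limma SE, n = 2 each; adjusted p 8e-10). The cytochrome b mRNA mt-Cytb (chromosome M, 14145 to 15288) had 288.2 and 151.7 on ribosomes, against 1090 and 1108 in total RNA. Ribosome-bound replicate 1 held about double the level of replicate 2 for these RNAs, and both lay far below total RNA. Reads from nuclear copies of mitochondrial genes cannot be told apart from them. Mitochondrial transcripts made up 0.272% and 0.126% of the ribosome-bound libraries, against 2.87% and 2.34% of the total RNA libraries. At 0 h the shares were 0.118% and 0.082% on ribosomes, against 2.66% and 2.71% in total RNA.

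Long noncoding RNAs had no call above the median gene. Of 137 in both tables, 0 were higher, against 15.3% of all genes, and 11 (8.03%) lower, a share near the 8.09% of all genes, with a median of -0.28; without total RNA replicate 1, 1 was higher and 3 lower, and without ribosome-bound replicate 2, 7 were lower. After a correction for transcript length and GC, 1 of the 137 was higher and 18 (13.1%) were lower, against 13.6% and 7.29% of all genes. Immunoglobulin constant genes, of B cells, were in both tables at low values: Ighg2b (-1.28), Ighg3 (-1.20) and Ighm (-0.84) were lower, and Ighg1 did not pass (-0.23). Oocyte markers were plain in both kinds of RNA, with 14 of 15 in the ribosome-bound table (Sohlh1 not listed) and 13 of 15 in the total RNA table (Figla and Sohlh1 not listed). Their summed values were 22700 and 26170 on ribosomes, against 16530 and 15690 in total RNA. Granulosa and cumulus markers summed to 463 and 475.6 on ribosomes (3 of 15 listed), against 374.2 and 445.3 in total RNA (5 of 15 listed); Foxl2, Amh, Cyp11a1, Star, Has2 and Lhcgr were in neither table. The part of such cells in the results below was not tested, and in these bulk samples fewer cells of a type and less RNA per cell cannot be told apart. Of the listed ones, the aromatase gene Cyp19a1 was higher on ribosomes (80.24 and 90.69, against 49.69 and 49.01), with a ratio of 1.00 that missed the threshold without ribosome-bound replicate 2 (adjusted p 0.0937) or total RNA replicate 1 (adjusted p 0.0532). Markers of blood, stroma and endothelium had 2 of 14 listed in each table, Pecam1 and Tek, and summed to 106.3 and 162.4 on ribosomes, against 153.8 and 153.8 in total RNA.

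The most over-represented transcripts came from genes of varied roles. Cnot8 (ENSMUSG00000020515.13, chromosome 11, 58104153 to 58118594), a catalytic deadenylase of the CCR4-NOT complex, had 87.99 and 102.9 scaled CPM on ribosomes, against 20.23 and 10.37 in total RNA. The ratio of 2.85 ± 0.26 (7.22-fold, adjusted p 3.1e-08) was the highest of any called gene whose libraries did not overlap and averaged 20 or more. Unnamed gene models were left out of that ranking. Ndfip2, an adaptor of NEDD4-family ubiquitin ligases, had 64.13 and 102.3 on ribosomes, against 24.80 and 13.59 in total RNA, a ratio of 2.30 ± 0.26. Dcun1d5, a factor for cullin neddylation, had 157.5 and 159.9 on ribosomes, against 40.64 and 35.97 in total RNA, a ratio of 2.25 ± 0.26. Cnot8, Ndfip2 and Dcun1d5 were chosen for large ratios among genes whose libraries did not overlap, so the separation of their libraries follows from that choice.

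The mitotic kinase gene Pbk (2.14), the ubiquitin ligase subunit gene Asb4 (2.10) and the dUTPase gene Dut (2.02) followed, with Casp8ap2 (2.04), which is needed for histone mRNA supply in S phase in mammalian cells. Casp8ap2 (ENSMUSG00000028282.12, chromosome 4, 32615451 to 32653265) had 661.9 and 841.6 on ribosomes, against 233.0 and 192.2 in total RNA. Ddx3x (ENSMUSG00000000787.12, chromosome X, 13280970 to 13294052), an RNA helicase that acts in translation initiation, had 1988 and 2250 on ribosomes, against 632.1 and 599.4 in total RNA, a ratio of 2.00 ± 0.13 (adjusted p 6e-11). Hspa5 (ENSMUSG00000026864.13, chromosome 2, 34771970 to 34777547), the chaperone BiP of the endoplasmic reticulum, had 469.2 and 708.9 on ribosomes, against 156.9 and 175.3 in total RNA, a ratio of 2.02 ± 0.19. These genes spanned low and high values; all were chosen among genes whose libraries did not overlap. Zfp280d, a zinc finger gene, closed this group (119.0 and 140.4 on ribosomes, against 42.05 and 35.36 in total RNA; ratio 1.94).

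Genes reported in earlier literature as translationally activated during maturation stood high as a list. Of 18 on the list 17 were in both tables, and 14 of the 17 were higher and 0 lower, against 15.3% and 8.09% of all genes. The list's median was 0.91, against 0 for all genes. All 17 had a positive ratio; the 3 that did not pass were Il7 (0.32), Ccne2 (0.22) and Cdc6 (0.10). The list was written with results of these data known, so its direction is no independent evidence.

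Plat (ENSMUSG00000031538.6, chromosome 8, 22757727 to 22782844), tissue plasminogen activator, is an early known case of mRNA that gains a tail in oocyte maturation. It had 4728 and 4529 scaled CPM on ribosomes, against 1587 and 1434 in total RNA, a ratio of 1.84 ± 0.15 (3.58-fold, adjusted p 1.1e-08). Ccnb1 (ENSMUSG00000041431.16, chromosome 13, 100778650 to 100786570), cyclin B1, had 474.1 and 549.2 on ribosomes, against 231.3 and 222.2 in total RNA, a ratio of 1.39 ± 0.14 (2.62-fold). Both genes had every ribosome-bound library at more than double every total RNA library. Slbp, which binds the stem-loop of histone mRNA, had 1174 and 1129 on ribosomes, against 522.3 and 476.5 in total RNA (1.43 ± 0.13). Mos, the kinase that starts the oocyte's MAPK cascade, had 379.5 and 381.1, against 207.6 and 203.3 (1.11 ± 0.16). Btg4, the adaptor that brings the deadenylase to maternal mRNA, had 1468 and 1642, against 1073 and 893.4 (0.89 ± 0.13). Across Slbp, Mos and Btg4 the replicates lay close together and the kinds of RNA did not overlap.

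Dazl, an RNA-binding activator of translation, had 573.4 and 596.2 on ribosomes, against 373.6 and 377.0 in total RNA (0.86 ± 0.15). Bub1b, a spindle checkpoint protein, had 3137 and 3399, against 2014 and 1972 (0.93 ± 0.12). Cdc20, which activates the anaphase-promoting complex, had 118.2 and 141.8, against 83.39 and 90.35 (0.79 ± 0.22, adjusted p 0.012). All 3 were higher in both ribosome-bound libraries, but Cdc20 did not pass without ribosome-bound replicate 2 (0.64, adjusted p 0.142) or total RNA replicate 1 (0.72, adjusted p 0.0866), or without centring (0.57, adjusted p 0.0591). Obox5 (1.196), Tex19.1 (1.21), Cnot6l (0.70), Pcm1 (0.76), Orc6 (0.91) and Tpx2 (1.29) were the others of the list that were higher; Obox5 belongs to a family of near-identical copies whose reads counting can split.

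**Figure D2:**
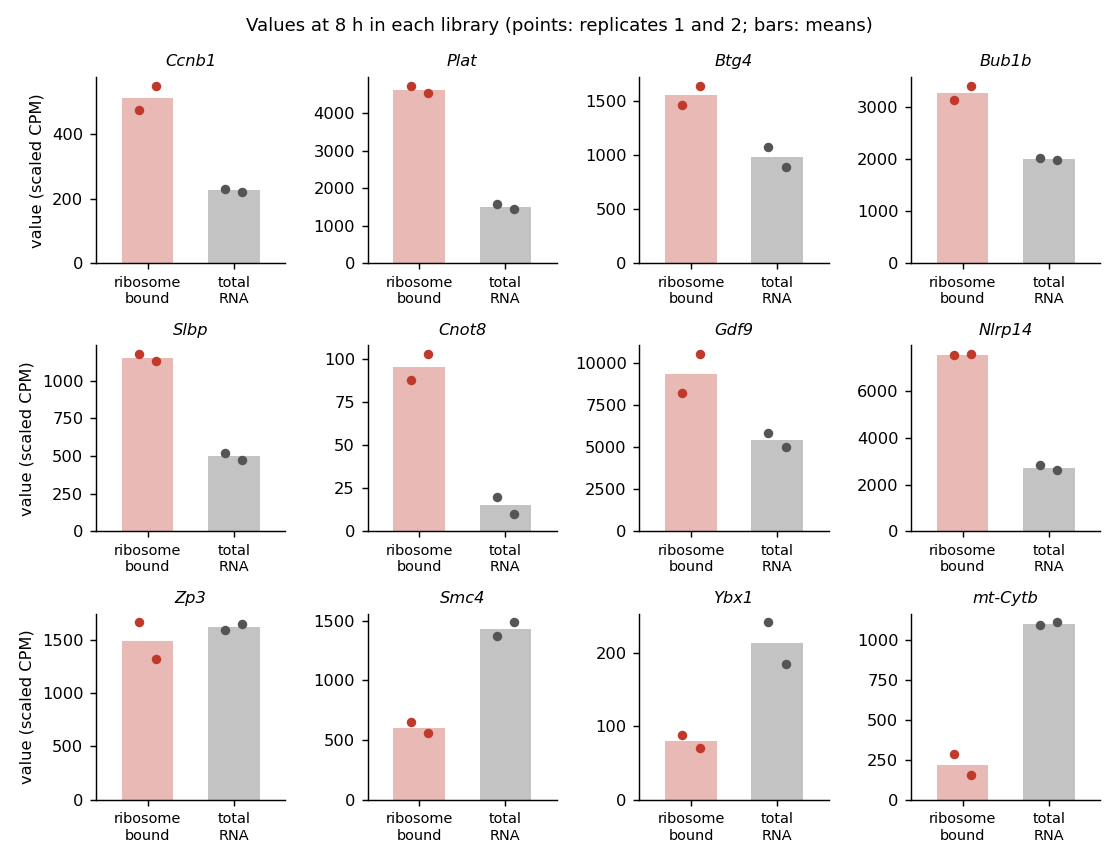
Values at 8 h in scaled CPM (y axis, from 0) for 12 genes, ribosome-bound libraries left and total RNA libraries right; points are replicates 1 and 2 and bars their mean. Points of the 2 kinds of RNA are apart in every panel but that of Zp3, where 1664 and 1317 on ribosomes overlap 1595 and 1645 in total RNA.

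The cytoplasmic polyadenylation element was looked for in the last 150 bases of the annotated 3′ UTR as TTTTAT or TTTTAAT, on the sense strand (GENCODE vM21, GRCm38/mm10). The windows below, 30 bases each and 5′ to 3′, come from 13 named genes picked by hand, all of which hold the element. Capitals mark the element nearest the 3′ end and, where it falls within the window, the polyadenylation signal AATAAA. Of the 13 genes, 11 were higher on ribosomes, Wee2 was not called and Ybx1 was lower. Because the genes were picked, that count is no evidence on the element.
Ccnb1, chr13:100778775-100778804, minus strand: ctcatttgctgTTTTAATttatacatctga
Plat, chr8:22782745-22782774, plus strand: gtatatttataTTTTAATctattttagttt
Btg4, chr9:51119797-51119826, plus strand: agataaatccctTTTTATgtctttttaaaa
Bub1b, chr2:118641556-118641585, plus strand: cactgtgtaTTTTATAATAAAatagttttt
Ndc80, chr17:71496164-71496193, minus strand: tataacatagtaTTTTATccccaaattatg
Fbxo43, chr15:36150145-36150174, minus strand: gtatatatgtgtTTTTATactatacacaca
Cnot8, chr11:58118552-58118581, plus strand: tatgtTTTTAATtttgtaaAATAAAgattg
Casp8ap2, chr4:32653176-32653205, plus strand: agccaaggttttTTTTATctatattaaata
Cdc20, chr4:118432911-118432940, minus strand: ttttaTTTTATtttttctAATAAAgttcgt
Magoh, chr4:107887351-107887380, plus strand: gggcaatTTTTATaaacAATAAAtgatgat
H1foo, chr6:115950157-115950186, plus strand: cgattctgaagcTTTTATtgtctaataagc
Wee2, chr6:40466780-40466809, plus strand: tcattgtaAATAAAgaTTTTATcttatcca
Ybx1, chr4:119278045-119278074, minus strand: cttcatTTTTAATttgtAATAAAgtttaca
The element met the signal end to end in Bub1b (0 bases between), lay 7 bases before it in Cnot8 and in Cdc20 and 4 bases before it in Magoh and in Ybx1, and lay 2 bases after it in Wee2. In Ccnb1 the nearest element lay 137 bases from the annotated 3′ end.

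Over all genes, the element was more frequent among transcripts over-represented on ribosomes. It was in 39.6% of 1089 genes called higher, 25.6% of 5302 not called and 18.98% of 548 called lower, against 27.3% of all 6939 nuclear protein-coding genes with a 3′ UTR of at least 50 bases and 22.1% of 20248 annotated ones. With genes cut by ratio into 10 groups of about equal number, the share ran from 16.9% in the lowest group to 42.8% in the highest. At 0 h the order was the opposite: 40.7% of genes called lower on ribosomes and 19.12% of those called higher held it. Among the genes higher at 8 h and lower at 0 h, 58.8% (104 of 177) held it, against 27.8% (107 of 385) of those higher at both times. These shares are descriptions, and several members of the lists above, Slbp, Mos and Dazl among them, had no such letters in the window.

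The higher genes were also poorer in G and C. How far base composition alone sets the shares of a U-rich element was not tested beyond the split by GC given here. Median GC of the transcript was 45.8% in genes called higher and 52.8% in genes called lower, against 49.2% overall. Spearman's rho between GC and the ratio across 7097 genes was -0.32 at 8 h and 0.11 at 0 h; genes of a library share its base composition bias. With genes cut into 3 groups by GC of the last 150 bases, the element was in 52.7% of higher and 37.6% of lower genes at low GC, 29.9% of higher and 24.1% of lower genes at middle GC, and 14.4% of higher and 8.2% of lower genes at high GC. The TTGTT pentamer was in 41.5% of higher and 27.6% of lower genes (34.1% of all), and AATAAA in the last 60 bases in 75.3% of higher and 57.5% of lower genes (65.3% of all). Median 3′ UTR length differed little, 1066 bases in higher and 1078 in lower genes.

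**Figure D3:**
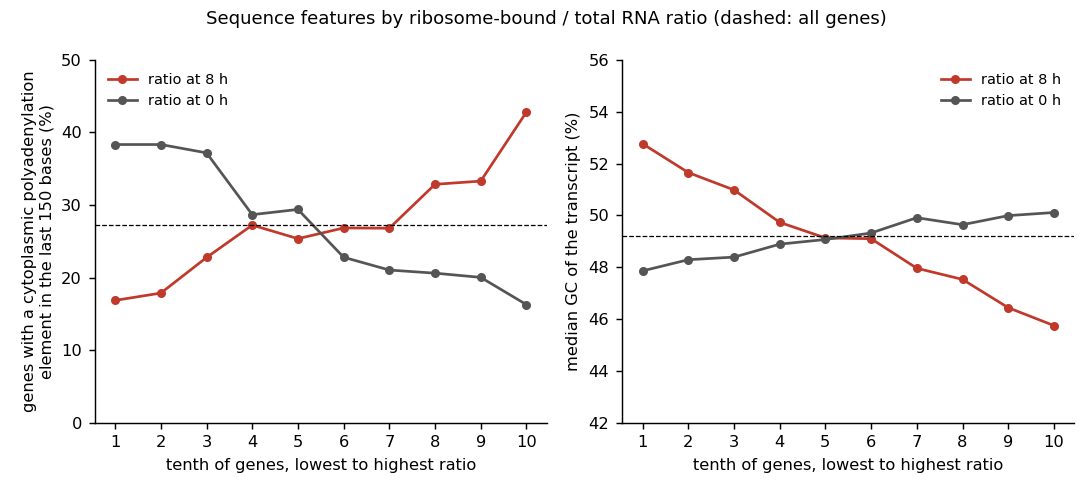
Left, percent of genes with a cytoplasmic polyadenylation element in the last 150 bases of the 3′ UTR; right, median GC of the transcript in percent; both over 10 groups of genes of about equal number, from the lowest to the highest ratio (x axis), with red for the ratio at 8 h and grey for that at 0 h. The share rises to 42.8% in the highest group at 8 h, while at 0 h the highest group has 16.3%; dashed lines mark all genes (27.3% and 49.2%).

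Regulators of M-phase entry lay mostly above the median gene. Of 25 in both tables, 20 had a positive ratio, with a median of 0.45. Called higher were 7 (28%) and lower 1 (4%), against 15.3% and 8.09% of all genes. Besides Ccnb1 and Mos, Cks2, a small CDK-binding protein, had 24.30 and 32.49 on ribosomes, against 8.717 and 7.728 in total RNA (1.88 ± 0.36). Map2k1 (MEK1), which MOS phosphorylates, reached 0.91 and Mastl (Greatwall kinase) 0.74. Mapk3 (ERK1), further down that cascade, was lower, with 124.2 and 123.0 on ribosomes, against 305.8 and 238.4 in total RNA (-0.90 ± 0.15, adjusted p 0.00013). Thus MEK1 and ERK1 transcripts lay on opposite sides of the median gene. Ccnb2 (cyclin B2) had 251.4 and 197.6, against 293.5 and 164.8 (0.24, adjusted p 0.57), and Cdk1 had 28.12 and 18.64, against 16.27 and 23.22 (0.45, adjusted p 0.20); in both the libraries overlapped. Wee2, the oocyte kinase that inhibits CDK1, had 933.8 and 796.9, against 1152 and 1135 (-0.18, adjusted p 0.28), and passed as lower without centring (-0.41) and after the length and GC correction (-0.35).

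In the anaphase-promoting complex and its regulators, 7 of 21 were higher (33.3%) and 1 lower (4.76%), against 15.3% and 8.09% of all genes. Their median was 0.20, or -0.02 without centring. Fbxo43 (ENSMUSG00000048230.5, chromosome 15, 36150060 to 36164884), EMI2, which inhibits the complex in the later metaphase II arrest, had 452.5 and 459.7 on ribosomes, against 180.3 and 154.0 in total RNA (1.67 ± 0.17). The subunit genes Cdc27 (1.17) and Anapc10 (1.43), separase (Espl1, 1.29) and securin (Pttg1, 0.92) were higher too. Securin and the protease that it holds inactive were both over-represented. Anapc5, a scaffold subunit, had 100.6 and 89.43, against 200.0 and 144.7 (-0.61), and did not pass without ribosome-bound replicate 2 (-0.55, adjusted p 0.116) or total RNA replicate 1 (-0.40, adjusted p 0.217).

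Kinetochore and spindle genes were called higher more often than the 15.3% of all genes. Of 30 spindle checkpoint and kinetochore genes, 13 were higher and 0 lower (median 0.55), and 8 were higher without total RNA replicate 1; without ribosome-bound replicate 1, 1 was lower. Ndc80, the microtubule-binding kinetochore subunit, had 244.2 and 233.9 on ribosomes, against 85.45 and 89.52 in total RNA (1.66 ± 0.17). Cenpe, a kinetochore motor, reached 1.17 and Cenph 1.48. Of 29 genes for the spindle, motors and cytokinesis, 17 were higher and 1 lower (median 0.70). Ckap5, a microtubule polymerase, had 753.7 and 809.9, against 284.6 and 360.3 (1.51 ± 0.14). Kif20b (1.52), Kif20a (1.52), Kif18a (1.504), Kif11 (1.03) and Tpx2 (783.4 and 825.0, against 362.9 and 403.5; 1.29 ± 0.13) were likewise higher. The lower gene was Tubgcp2, of the gamma-tubulin complex (26.27 and 10.64, against 37.11 and 51.37; -1.10), which did not pass without ribosome-bound replicate 2 (-0.51, adjusted p 0.325) or total RNA replicate 2 (-0.88, adjusted p 0.113).

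Of 23 condensin and cohesin genes, 11 were higher (47.8%, against 15.3% of all genes) and 2 lower, a share near the 8.09% of all genes (median 0.55); without ribosome-bound replicate 1, 7 were higher, and after the length and GC correction 6 were. Smc4 (ENSMUSG00000034349.14, chromosome 3, 69004738 to 69034623), the ATPase core shared by both condensins, was lower, with 651.2 and 554.6 on ribosomes, against 1369 and 1484 in total RNA (-1.02 ± 0.16, adjusted p 4e-05). Ncapg2, a subunit of condensin II, was higher, with 320.0 and 374.6 on ribosomes, against 125.8 and 118.9 in total RNA (1.72 ± 0.16). Partners of the same complex thus stood on opposite sides of the median gene. Wapl, which releases cohesin from chromosomes, had 1466 and 1620, against 761.5 and 774.5 (1.23 ± 0.12). Smc3 (0.94), Rad21 (0.75) and the cohesin protector Sgol2a (1.43) were higher as well. Mau2, a cohesin loader, had 39.78 and 21.01, against 70.72 and 52.78 (-0.83), and did not pass without ribosome-bound replicate 2 (-0.41, adjusted p 0.448) or total RNA replicate 1 (-0.64, adjusted p 0.239). Of 28 replication licensing genes 6 were higher (21.4%, against 15.3% of all genes) and 0 lower (median 0.21, or -0.01 without centring). Mcm2 (1.16), Pcna (0.99), Orc6 (0.91) and Mcm4 (0.85) led them. Fewer were higher without total RNA replicate 1, and the lower count rose without ribosome-bound replicate 1 or total RNA replicate 2.

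Genes for deadenylation and decay centred on the median gene, at -0.01, with 6 of 21 higher (28.6%) and 1 lower (4.76%). Of all genes 15.3% were higher and 8.09% lower. After Cnot8, Pan2, the catalytic subunit of another deadenylase, had 519.7 and 604.9 on ribosomes, against 244.1 and 251.0 in total RNA (1.40 ± 0.13). Btg4, Cnot6l (0.70), the exonuclease gene Xrn1 (0.93) and Edc4 (0.43) were higher too. The scaffold gene Cnot1 did not pass (611.9 and 597.6, against 779.2 and 757.6; -0.12). Cnot4, a ubiquitin ligase tied to the complex, was lower (-0.53) with all libraries, but did not pass without ribosome-bound replicate 1 (-0.40, adjusted p 0.161), total RNA replicate 1 (-0.59, adjusted p 0.0553) or total RNA replicate 2 (-0.49, adjusted p 0.0965).

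Among oocyte RNA-binding and translational regulators, 5 of 31 were higher (16.1%) and 7 lower (22.6%), with a median of -0.19. Of all genes 15.3% were higher and 8.09% lower, so the higher share was near the background. Without ribosome-bound replicate 2, 3 were higher and 2 lower; without total RNA replicate 2, 3 were higher and 6 lower. The higher ones were Cpeb1 (1338 and 1206 on ribosomes, against 909.5 and 859.5 in total RNA, ratio 0.75 ± 0.12), the poly(A) polymerase gene Papd4 (0.84), Cpsf2 (0.79), Elavl2 (0.55) and Dazl. The lower ones include mRNA packaging genes. Ybx1, a cold-shock protein that coats mRNA, had 88.36 and 70.91, against 241.8 and 185.4 (-1.19 ± 0.22). Igf2bp2 had 635.4 and 545.0, against 1018 and 1117 (-0.63 ± 0.13). Nanos1 (-0.95), Zar1l (-0.80), Eif4e1b (-0.52) and Lsm14b (-0.47) were lower too.

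Of 46 cytosolic ribosomal protein genes, 0 were higher and 9 lower (19.6%, against 8.09% of all genes), and 8 had a positive ratio, with a median of -0.56; at 0 h the median was 0.14. The lower count was 2 without ribosome-bound replicate 2, and 3 without total RNA replicate 1; without total RNA replicate 2, 1 was higher. Rpl28 had 3.348 and 3.415 on ribosomes, against 22.01 and 18.52 in total RNA (-2.05 ± 0.34). Rpl4 had 129.0 and 115.6, against 206.8 and 211.7 (-0.55), and did not pass without ribosome-bound replicate 2 (-0.49, adjusted p 0.0673). Most of these genes had low values: of the 9 with a mean value of at least 20, 2 were lower and the median was 0.0072, and 2 of the 46 were lower in the libraries at 8 h alone. Reads from their many pseudogene copies can be split or lost in counting. Rpl22, which carries the tag, had 22.78 and 32.27, against 13.04 and 20.33 (0.92, adjusted p 0.064).

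Initiation and elongation factors had 6 of 44 higher (13.6%) and 4 lower (9.09%), near the 15.3% and 8.09% of all genes (median -0.07); without total RNA replicate 1 the lower count was 1, and without ribosome-bound replicate 1 it was 7. The helicase gene Eif4a2 had 169.4 and 138.6 on ribosomes, against 69.61 and 76.64 in total RNA (1.28 ± 0.19), and Eif4g2 reached 0.77. Eif1ax was lower, with 29.29 and 24.03, against 78.79 and 51.86 (-1.01), and did not pass without total RNA replicate 1 (-0.74, adjusted p 0.0588). Eef1a1, the elongation factor that brings tRNA, was lower too (-0.75), but did not pass without ribosome-bound replicate 2 (-0.51, adjusted p 0.146) or total RNA replicate 1 (-0.72, adjusted p 0.0509). Aminoacyl-tRNA synthetases had 4 of 17 higher, led by Lars (1.44) and Tars (1.40), and 1 lower, Kars (-1.06), with a median of 0.25; 2 were lower without total RNA replicate 2.

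Maternal-effect and secreted products of the oocyte were called higher more often than all genes were. In the list of the subcortical maternal complex and maternal-effect genes, 14 of 29 were higher (48.3%) and 2 lower (6.9%), with a median of 0.36. Of all genes 15.3% were higher and 8.09% lower. Nlrp14 (ENSMUSG00000016626.10, chromosome 7, 107166990 to 107198102) had 7565 and 7591 on ribosomes, against 2861 and 2618 in total RNA (1.69 ± 0.10, adjusted p 6e-11). Nlrp5 (MATER), a core subunit of the complex, had 3042 and 3593, against 1177 and 1443 (1.56 ± 0.14), and Padi6 had 3893 and 4361, against 1779 and 1802 (1.43 ± 0.13). These 3 genes had ribosome-bound values above total RNA in every library. Tle6 (0.85), Ooep (0.46) and the DNA methyltransferase gene Dnmt1 (1.06) were higher too, as were Nlrp9a, Nlrp9b and Nlrp9c, whose near-identical copies may share reads. Dnmt3l, a cofactor of DNA methylation in growing oocytes, was lower, with 43.64 and 43.74 on ribosomes, against 114.6 and 98.66 in total RNA (-1.04 ± 0.20). Zfp57, which keeps imprints, had 2221 and 2179, against 3366 and 3186 (-0.35, adjusted p 0.032), and missed the threshold without any of the 4 libraries at 8 h (adjusted p 0.0603 to 0.14).

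Of 20 genes for zona, secreted and surface proteins, 9 were higher (45%) and 1 lower (5%), against 15.3% and 8.09% of all genes (median 0.46). Gdf9, a growth factor that acts on cumulus cells, had 8235 and 10530 on ribosomes, against 5849 and 5001 in total RNA (1.01 ± 0.16), and its partner Bmp15 had 4290 and 5112, against 2880 and 2759 (0.96 ± 0.13). Astl (ovastacin), the protease that cleaves ZP2 after fertilisation, had 579.8 and 785.5, against 238.6 and 254.5 (1.67 ± 0.17). Its substrate Zp2 had 1473 and 1348, against 1064 and 1121 (0.59 ± 0.12), whereas Zp3 did not pass (1664 and 1317, against 1595 and 1645; 0.09, adjusted p 0.71). Zona genes thus stood lower in the order than the growth factors, and Zp1 was at -0.38 (adjusted p 0.059). The lower gene, Umodl1, had 138.3 and 57.89, against 193.9 and 202.0 (-0.91), and did not pass without ribosome-bound replicate 2 (-0.31, adjusted p 0.457), total RNA replicate 1 (-0.96, adjusted p 0.0634) or total RNA replicate 2 (-0.89, adjusted p 0.072).

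The endoplasmic reticulum list had 9 of 39 higher (23.1%) and 5 lower (12.8%), against 15.3% and 8.09% of all genes (median 0.14, or -0.08 without centring). After Hspa5, the disulfide isomerase gene Pdia6 had 217.9 and 253.2 on ribosomes, against 115.6 and 100.7 in total RNA (1.34 ± 0.18), and P4hb reached 1.04. Srp68 (-1.02) and Srp14 (-1.06), of the signal recognition particle, were lower, as were Srp72 (-0.66), Stt3b (-0.52) and another isomerase gene, Pdia4 (-0.56). Without ribosome-bound replicate 2, 5 of the list were higher and 1 lower, and without total RNA replicate 2, 5 were higher with a median of -0.02; the lower count was 3 without ribosome-bound replicate 1 and 2 without total RNA replicate 1. Srp68 did not pass without ribosome-bound replicate 2 (-0.78, adjusted p 0.193) or total RNA replicate 1 (-0.72, adjusted p 0.212). Histone supply and chromatin assembly had 10 of 24 higher (41.7%) and 0 lower (median 0.56). The lower count rose without ribosome-bound replicate 1 or total RNA replicate 2. H1foo, the linker histone of oocytes, had 3207 and 4048, against 1779 and 1652 (1.29 ± 0.14), beside Slbp and the histone acetyltransferase gene Hat1 (1.54).

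Among the remaining lists, nuclear pore and transport genes had 18 of 47 higher (38.3%) and 3 lower (6.38%), against 15.3% and 8.09% of all genes (median 0.42). Fewer were called each way without ribosome-bound replicate 2. Nup98 had 2549 and 2694 on ribosomes, against 1165 and 1284 in total RNA (1.32 ± 0.13), and Ranbp2 had 147.7 and 161.3, against 61.57 and 67.35 (1.47 ± 0.19). Xpo1, the main exporter of proteins from the nucleus, and the importin gene Ipo9 were both lower at -0.67; without ribosome-bound replicate 2 they stood at -0.47 and -0.37 and did not pass (adjusted p 0.226 and 0.313). Nor did Xpo1 pass without total RNA replicate 1 (-0.62, adjusted p 0.108), nor Ipo9 without total RNA replicate 2 (-0.60, adjusted p 0.105). Splicing factors had 15 of 65 higher (23.1%) and 1 lower (1.54%), with a median of 0.39 and 53 of 65 above 0. Fewer were higher without ribosome-bound replicate 2. Srsf7 reached 1.64 and Hnrnph1 1.38, and Magoh, of the exon junction complex, had 170.3 and 182.8, against 92.54 and 78.23 (1.27 ± 0.23). Sf1 was lower (-0.55, adjusted p 0.048) and did not pass without any of the 4 libraries at 8 h (adjusted p 0.0566 to 0.241).

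Cytosolic chaperones had 7 of 32 higher (21.9%) and 2 lower (6.25%), against 15.3% and 8.09% of all genes (median 0.15, or -0.07 without centring). Fewer were higher without ribosome-bound replicate 2. Hsp90ab1 was higher (795.6 and 949.9 on ribosomes, against 409.4 and 443.4 in total RNA; 1.25 ± 0.13), while the heat-shock genes Dnajb1 (-1.04) and Hspa8 (-0.77) were lower; Hspa8 did not pass without ribosome-bound replicate 2 (-0.50, adjusted p 0.0836). Zinc finger genes of the Zfp series had 19 of 144 higher and 11 lower (median -0.08), near the background, with 10 higher and 5 lower without ribosome-bound replicate 2, 12 and 7 without total RNA replicate 1, and lower counts of 7 without ribosome-bound replicate 1 and 5 without total RNA replicate 2. Solute carriers had 17 of 105 higher (16.2%) and 6 lower (5.71%), near the background (median 0.03), among them Slc25a31 (1.45), an ATP carrier of germ cells, and the vitamin C transporter gene Slc23a2 (1.21). Their higher and lower counts were 8 and 2 without ribosome-bound replicate 2, 9 and 3 without total RNA replicate 1, and 11 and 7 without ribosome-bound replicate 1.

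Nuclear-encoded subunits of oxidative phosphorylation had 2 of 51 higher (3.92%) and 4 lower (7.84%), the lower share near the background (median -0.08), with lower counts of 1 without ribosome-bound replicate 2 and 2 without total RNA replicate 1. After the length and GC correction 5 were higher and 5 lower, and of the 15 with a mean value of at least 20, 2 were higher and 0 lower with a median of 0.24. Ndufb11 had 3.044 and 3.722 on ribosomes, against 21.45 and 11.19 in total RNA (-1.70 ± 0.35). The higher pair was Ndufa4 (0.80) and Atp5b (0.50); the Atp5b call did not hold without any of the 4 libraries at 8 h (adjusted p 0.0523 to 0.116), and that of Ndufa4 ended without ribosome-bound replicate 2 (0.56, adjusted p 0.281) or total RNA replicate 1 (0.61, adjusted p 0.213). Mitochondrial ribosomal proteins had 2 of 42 higher and 4 lower (median -0.09), with 0 higher and 1 lower without either ribosome-bound replicate 2 or total RNA replicate 1. With all libraries their shares were 4.76% higher and 9.52% lower, the lower one near the 8.09% of all genes. Mrpl12 was the lowest of them (4.285 and 2.553, against 19.77 and 14.26, ratio -1.82 ± 0.42). Proteasome subunits had 3 of 32 higher and 3 lower (median -0.03), or 1 lower without total RNA replicate 1. Psma2 had 467.2 and 517.5 on ribosomes, against 275.9 and 230.8 in total RNA (1.18 ± 0.14), and Psma6, from the same ring, had 7.867 and 11.32, against 39.16 and 29.59 (-1.52 ± 0.28). Psma2 and Psma6 were picked by smallest p in each direction, and 9.4% of the proteasome list was called each way. Of all genes 15.3% were higher and 8.09% lower, so the lower share was near the background.

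**Figure D4:**
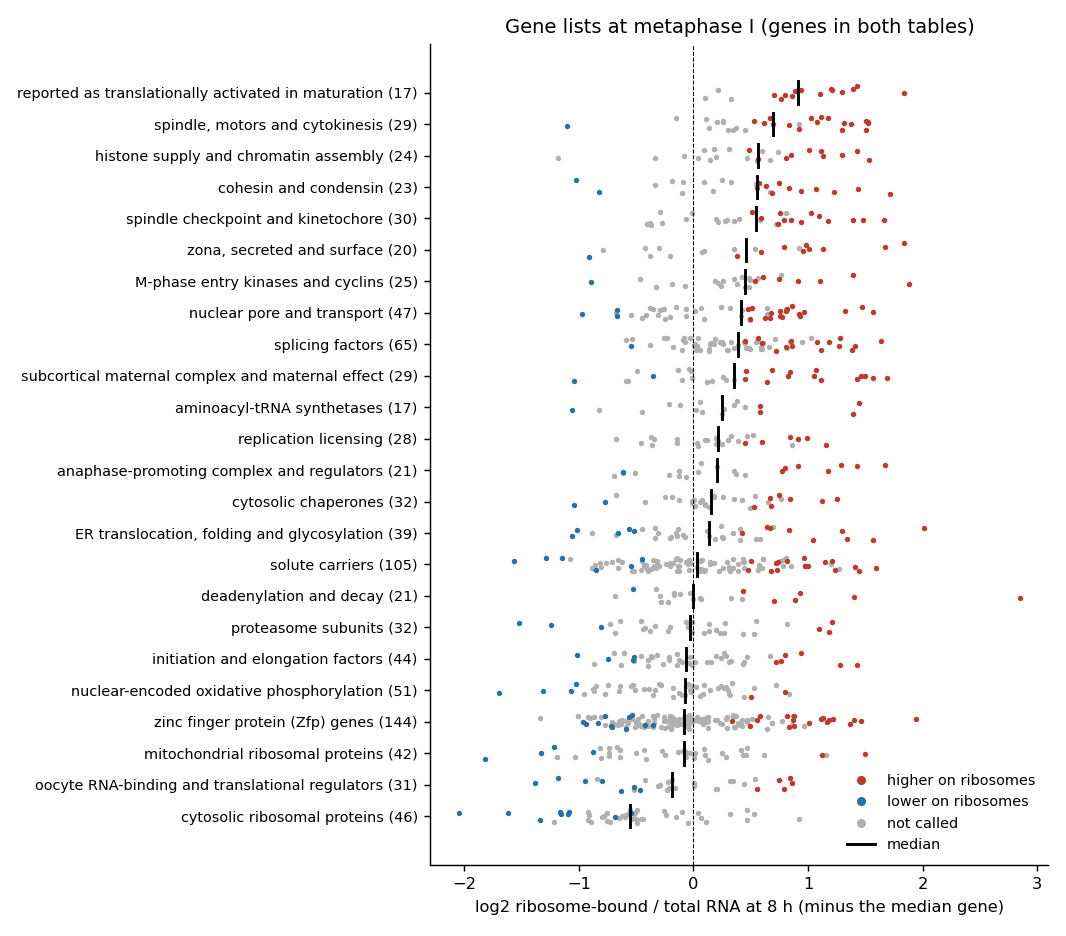
Log2 ratio of ribosome-bound to total RNA at 8 h, minus the median gene (x axis), for the members of 24 gene lists in both tables (number in brackets), with red for called higher, blue for called lower, grey for not called and a black bar for the median. The list reported as activated in maturation is at the top (median 0.91) and cytosolic ribosomal proteins at the bottom (-0.56).

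Among called genes whose libraries did not overlap and averaged 20 or more, the most under-represented transcripts of nuclear genes had modest values. Unnamed gene models were left out of this ranking too. Ubald1 (ENSMUSG00000039568.6, chromosome 16, 4874778 to 4880315) had 6.954 and 2.061 scaled CPM on ribosomes, against 55.89 and 20.88 in total RNA, a ratio of -2.62 ± 0.53 (adjusted p 0.0008). Copz2, a subunit of the COPI vesicle coat, had 8.218 and 3.907, against 36.03 and 33.46 (-2.19 ± 0.38). Entpd1 (CD39), a cell-surface nucleotidase, had 22.45 and 11.60, against 82.41 and 71.43 (-1.95 ± 0.32). In all 3, replicate 1 was the higher of the pair on ribosomes; genes with overlapping libraries were not considered. Laptm5 (-1.92), a lysosomal protein known from blood cells, and Armc7 (-1.82) came next; without ribosome-bound replicate 2 they stood at -1.83 (adjusted p 0.0569) and -1.29 (adjusted p 0.124), and without total RNA replicate 1 at -1.80 (adjusted p 0.0573) and -1.69 (adjusted p 0.0543). Nobox, a transcription factor of oocyte growth, was lower at higher values (258.0 and 263.3, against 533.2 and 474.5; -0.72), and did not pass without total RNA replicate 1 (-0.66, adjusted p 0.0634).

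Set against the same ratio in prophase arrest, the ratio at metaphase I differed for 1551 of 7346 genes (21.1%), 878 higher at 8 h (12%) and 673 lower (9.16%), by the interaction of RNA kind and time. At 0 h itself 2404 genes (32.7%) were called, 1287 higher (17.5%) and 1117 lower (15.2%). Of the genes higher at 8 h, 399 were higher and 185 lower at 0 h; of those lower at 8 h, 167 were lower and 51 higher at 0 h. The genes higher at 8 h had a median change between 0 h and 8 h of 0.65 on ribosomes and 0.01 in total RNA, and the lower ones of -0.55 on ribosomes and 0.13 in total RNA; they were chosen on the 8 h libraries that enter these medians.

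Of the maturation list, which was written with results of these data known, 8 of 17 were called higher at 8 h and lower at 0 h. Among all 7346 genes tested, 185 were. The list's median was -0.60 at 0 h, -0.35 at 2 h, 0.51 at 4 h, 0.79 at 6 h and 0.91 at 8 h, and 13 of 17 had a higher ratio at 8 h than at 0 h by the interaction, against 12% of all genes. Ccnb1 had a ratio of 1.39 at 8 h and -0.86 at 0 h, a difference of 2.25 ± 0.20 (adjusted p 3.7e-08). Plat differed by 2.60 ± 0.22 and Btg4 by 1.82 ± 0.19. In the fitted ratios, Slbp was at 0.68 by 2 h, Ccnb1 at 0.52 by 4 h, and Btg4 still at -0.16 at 6 h. Cnot8 differed by 3.23 ± 0.37; its total RNA was at 20.23 and 10.37 at 8 h, against 59.77 and 55.00 at 0 h, and its ribosome-bound RNA was at 87.99 and 102.9, against 38.38 and 37.26. Its ratio thus grew from both sides, more RNA on ribosomes and less in total.

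Several oocyte products had a smaller ratio than in arrest. Nlrp14 had 1.69 at 8 h and 2.32 at 0 h (difference -0.63, adjusted p 0.0032), Gdf9 had 1.01 and 2.10 (-1.09, adjusted p 0.00096), and Zp2 had 0.59 and 2.35 (-1.76, adjusted p 1e-07). Zp3 had 0.09 at 8 h and 1.69 at 0 h, so its over-representation in arrest was no longer called at metaphase I. Hspa5 was high at both times, 2.02 at 8 h and 2.11 at 0 h (adjusted p of the difference 0.84). Smc4 went from above the median gene to below it, with -1.02 at 8 h and 1.06 at 0 h (-2.08, adjusted p 5.2e-07), as did Mapk3 (-1.49) and Dnmt3l (-2.07). Ybx1 and Igf2bp2 were low at both times, Ybx1 with -1.19 at 8 h and -1.199 at 0 h, and Igf2bp2 with -0.63 at 8 h and -0.65 at 0 h. Among lists, oxidative phosphorylation had 0 of 51 higher and 13 lower by the interaction, against 12% and 9.16% of all genes. Its median ratio was -0.08 at 8 h and 0.77 at 0 h. Cytosolic ribosomal proteins had 0 of 46 higher and 7 lower. Most members of both lists had low values: 15 of the 51 and 9 of the 46 had a mean value of at least 20 at 8 h.

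**Figure D5:**
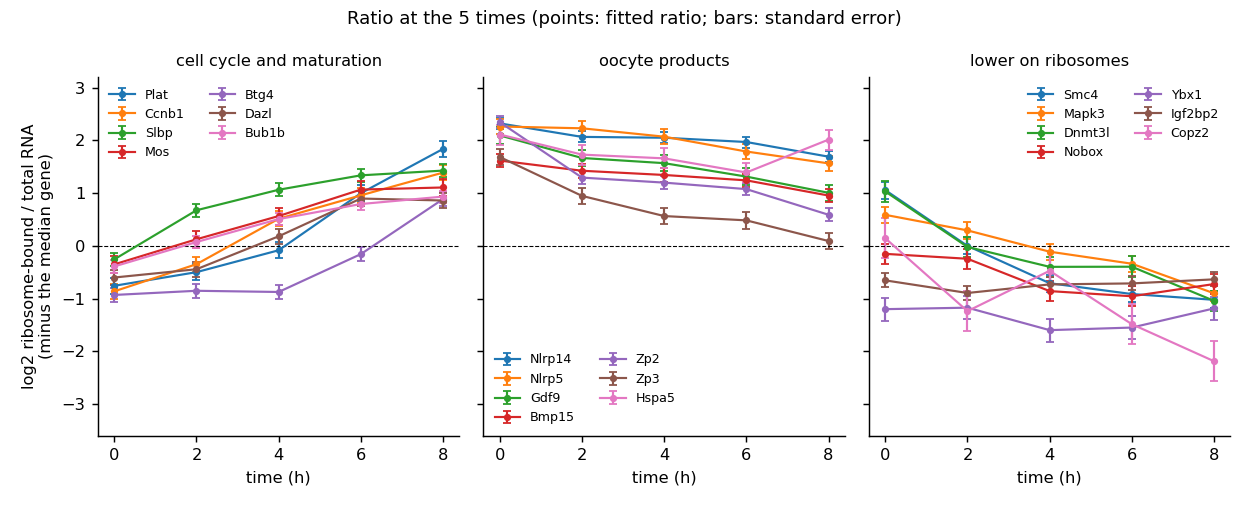
Fitted log2 ratio of ribosome-bound to total RNA, minus the median gene at each time (y axis), at 0, 2, 4, 6 and 8 h (x axis) for 21 genes in 3 panels; bars are limma standard errors, n = 2 libraries of each kind a time. Plat, Ccnb1 and Btg4 climb from below 0 to 1.84, 1.39 and 0.89 at 8 h, oocyte products such as Zp3 decline to 0.09, and Smc4 falls to -1.02.

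Some genes were listed in a single table and have no ratio. The ribosome-bound table alone listed 197 genes, 174 of them protein coding, with a median of their mean values at 8 h of 7.23. Those with the highest means among named genes were Coq7 (22.29 and 25.59), Zfp760 (30.56 and 16.64), Rad51ap2 (20.35 and 20.67), Pigg (13.04 and 25.50) and Efna1 (18.43 and 19.26). The total RNA table alone listed 571 genes, 499 protein coding and 50 long noncoding, with a median of 9.85. The highest named ones were Tnfsf13b (35.27 and 13.52), Ccdc28a (29.93 and 18.16), Thrb (36.40 and 9.936), Rfng (17.83 and 25.21) and Erf (18.08 and 24.81). All of these are low values, and absence from a table means only that the gene was under the authors' minimum there.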

How the data were processed

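The authors deposited 1 table of ribosome-bound RNA and 1 of total RNA, each scaled separately, whose values are a normalised signal: CPM multiplied by a factor that differs between libraries. The submitters' processing notes name mm10, HISAT2, HTSeq, SAMtools, limma, edgeR, FastQC and Trimmomatic 0.36. Not given in the sources used here are poly(A) selection, strandedness and the rule for listing genes; every listed gene passed 10 in at least 1 library. The plan assumed plain CPM, but 10 of 20 library totals (968768 to 1052767) exceeded 1e6; the planned test on log2 values was kept. All values were whole multiples of a step per library within 0.01 of a read, which gave the depths, 27571236 to 51714900 reads per library. The description field calls the total RNA samples ribosome-bound; titles and design were followed.

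Genes in both tables were fitted as log2(value + 1) in limma 3.58.1 (R 4.3.3) over all 20 libraries as 10 groups, with moderated variances that followed the mean, after each time's difference was centred on the median gene. Tests were two-sided with Benjamini-Hochberg adjustment over 7346 genes at 0.05; ± is the limma standard error. The replicate letters A and B of the labels were not used to pair the samples in this fit. Positions and 3′ UTRs came from GENCODE vM21 by gene ID (7336 matched). Python 3.11.15 was used for the rest.

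Named genes are the 10 largest ratios each way among called genes with a mean value of at least 20 at 8 h and no overlap between libraries, unnamed gene models aside; from each list, at most 2 genes each way by smallest p; a panel of 20; the 3 largest differences each way between 8 h and 0 h; and the 5 highest genes of a single table. Other list members, long noncoding classes and immunoglobulin genes were chosen after their values were seen. Members and lists were chosen with earlier results of these data known. Lists have counts and medians, and no test; some members are not reported by name here. A change of poly(A) tail length could alter recovery if poly(A) RNA was selected; this was not tested.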

Additional observations from a re-analysis of the deposited data

Results flagged for a closer look

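The ratio of ribosome-bound to total RNA at 8 h differed from that at 0 h by the interaction term for 1551 genes. Among the genes of the panel and those with the largest differences, the ratio was higher at 8 h for Pstpip2 (by 3.27 on the log2 scale), Cnot8 (3.23), Zfp280d (3.2), Plat (2.60), Ccnb1 (2.25), Magoh (2.17), Btg4 (1.82), Slbp (1.68), Dazl (1.46), Mos (1.46), Bub1b (1.32) and Tpx2 (0.80). It was lower at 8 h for Ubqln4 (-2.52), Copz2 (-2.33), Cox6c (-2.28), Smc4 (-2.08), Zp2 (-1.76), Zp3 (-1.59), Gdf9 (-1.09) and Bmp15 (-0.66).

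Some of these rest on low values. Pstpip2 had 26.67 and 35.72 on ribosomes at 8 h, against 9.699 and 17.20 in total RNA, a ratio of 1.41 that did not pass without ribosome-bound replicate 2 (1.19, adjusted p 0.0939) or total RNA replicate 1 (1.01, adjusted p 0.118). Ubqln4 had 16.25 and 13.10 on ribosomes at 8 h, against 23.51 and 42.32 in total RNA; its 8 h ratio of -0.84 did not pass (adjusted p 0.081), but did without centring (-1.06) and without total RNA replicate 1 (-1.27). Cox6c, a subunit of cytochrome c oxidase, had a ratio of -0.30 at 8 h (adjusted p 0.44) and 1.98 at 0 h.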

How the results depend on the processing

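Of 112 named genes 105 were called at 8 h, and 75 of these were called in the same direction under all 14 alternatives (78 with genes that a minimum mean value of 20 left untested); none of the 105 changed sign. Signs turned for 2 uncalled genes: Zp3 was -0.13 without centring and ran from -0.087 (without ribosome-bound replicate 1) to 0.24 over the leave-outs, and Ccnb2 ran from -0.18 (without total RNA replicate 2) to 0.64. Without centring 717 genes were higher and 1351 lower. The libraries at 8 h alone gave 1341 calls with 393 lower; TMM scaling gave 1751, 1040 of them higher. The length and GC correction gave 1533 calls, 1254 of them called in the same direction without it. Leaving out 1 library at 8 h gave 890 to 1431 calls, 615 to 896 higher and 275 to 535 lower, the fewest without ribosome-bound replicate 2; without the 4 h ribosome-bound replicate 1, a library that stands apart, 1815 were called, 1162 higher and 653 lower (chosen after seeing the data). The difference from 0 h was called for 1087 to 1447 genes with 1 library at 0 h or 8 h left out, and for 1151 with libraries at 0 h and 8 h alone (also chosen after seeing the data). Ribosome-bound and total RNA libraries of the same letter deviated together with correlations of -0.08 to 0.04 at the 5 times. With 2 libraries a group, such correlations cannot show whether a letter marks a shared sample. The replicate block gave 1631 calls, and 1310 with the length and GC correction. The polyadenylation element was in 52.4% of higher, 27.7% of lower and 37.9% of all genes over the last 300 bases. The edgeR tests planned on recovered reads were not run. The median standard error of a ratio was 0.27 on the log2 scale with 2 libraries a group, which limits what small ratios can show.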
